A study of Homo sapiens with 2 samples.

Results

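The genes described here are 31 genes of the TGF-beta and activin pathway, chosen by name. They comprise 6 ligands, 4 latent binding proteins, 11 receptors, 5 SMADs and 5 regulators, out of 24748 genes with rows in both libraries. The RNA came from A549, a line of human lung adenocarcinoma. One library came from cells carrying an shRNA against PSPC1, a paraspeckle RNA-binding protein, and it was set against a library from cells carrying an shRNA against LacZ, a gene of Escherichia coli with no human counterpart. Both lines grew in medium with 10% foetal bovine serum, and the labels name no added TGF-beta or activin. The labels do not say how many shRNA sequences or clones were used. With 1 library in each group, no test between the groups was possible and every difference is that of a single pair of libraries. All errors are half-widths of 95% intervals, which were deposited for each transcript. For a gene with several transcripts they were combined as the root of their sum of squares, as if independent. The intervals hold the error of counting and of assigning fragments inside 1 library and nothing beyond it.

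TGF-beta is secreted as a latent complex, which latent binding proteins tether to the extracellular matrix. Active TGF-beta or activin binds a type II receptor kinase, which phosphorylates a type I receptor kinase. The type I receptor phosphorylates SMAD2 and SMAD3 for TGF-beta and activin, or SMAD1 and SMAD5 for bone morphogenetic proteins, and these enter the nucleus with SMAD4. Follistatin and its relative FSTL3 bind activin and keep it from its receptors, and the ubiquitin ligases SMURF1 and SMURF2 promote turnover of SMADs and receptors. In lung epithelial cells the pathway is best known for growth arrest and for epithelial to mesenchymal transition.

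The labels were checked on the targeted gene and on cell markers. PSPC1 stood at 17.7 ± 0.86 FPKM in shPSPC1 cells, against 31.5 ± 1.3 FPKM in shLacZ cells, so the shPSPC1 library held 56.3% of the level in the shLacZ library. FPKM count fragments for each kilobase of a transcript and are scaled by the depth of the library. The depths implied by the deposited intervals were 57100000 fragments in the shPSPC1 and 56200000 in the shLacZ library. All 8 of 8 markers listed for A549 epithelial cells were at 1 FPKM or more, with summed levels of 7764 FPKM in shPSPC1 and 7978 FPKM in shLacZ cells. The markers did not all differ one way, and by summed FPKM 7 of the 8 were lower in shPSPC1 cells. KRT19 was most so, at 130 FPKM in shPSPC1 and 216 FPKM in shLacZ cells. AKR1B10 was higher, at 2131 FPKM in shPSPC1 and 1072 FPKM in shLacZ cells. The largest part of the sums was ALDH1A1, whose value of 3198 FPKM in shLacZ cells had an interval wider than the value itself. ALDH1A1 was not lower by estimated fragments, at about 341699 in the shPSPC1 and 318675 in the shLacZ library. What these markers had to do with the results below was not tested. Of 5 endothelial and 7 fibroblast markers, 0 reached 1 FPKM in either library. The endothelial sums were 0.151 FPKM in shPSPC1 and 0.198 FPKM in shLacZ cells, the fibroblast sums 0.71 FPKM in shPSPC1 and 0.943 FPKM in shLacZ cells, and the fibroblast collagen COL1A2 was at 0 in both. Of 7 leukocyte markers, CD68 and CD14 did, with a list sum of 10.9 FPKM in shPSPC1 and 18.1 FPKM in shLacZ cells, and the T cell marker CD3E was at 0 in both. In bulk RNA, fewer cells with a transcript and less of it per cell cannot be told apart.

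Most of the 31 genes differed little between the libraries. The largest differences by all 3 measures used here were TGFB2 and LTBP2 downward and the activin inhibitor FST upward. TGFB2 kept its size under every setting run, while LTBP2 and FST did not. The ligand gene INHBB was higher by an amount that depends on which transcripts are counted. Of the 31 genes, 28 reached 1 FPKM in the higher library and 27 in both, while TGFB3, INHBA and ENG stayed below it. Log2 ratios are shPSPC1 over shLacZ after adding 1 FPKM to both, which understates the change of genes with low levels. Over the 28 genes the median log2 ratio of summed FPKM was -0.04, against 0.01 over all 11465 genes at 1 FPKM or more, and 12 genes lay above 0 and 16 below.

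**Figure D1:**
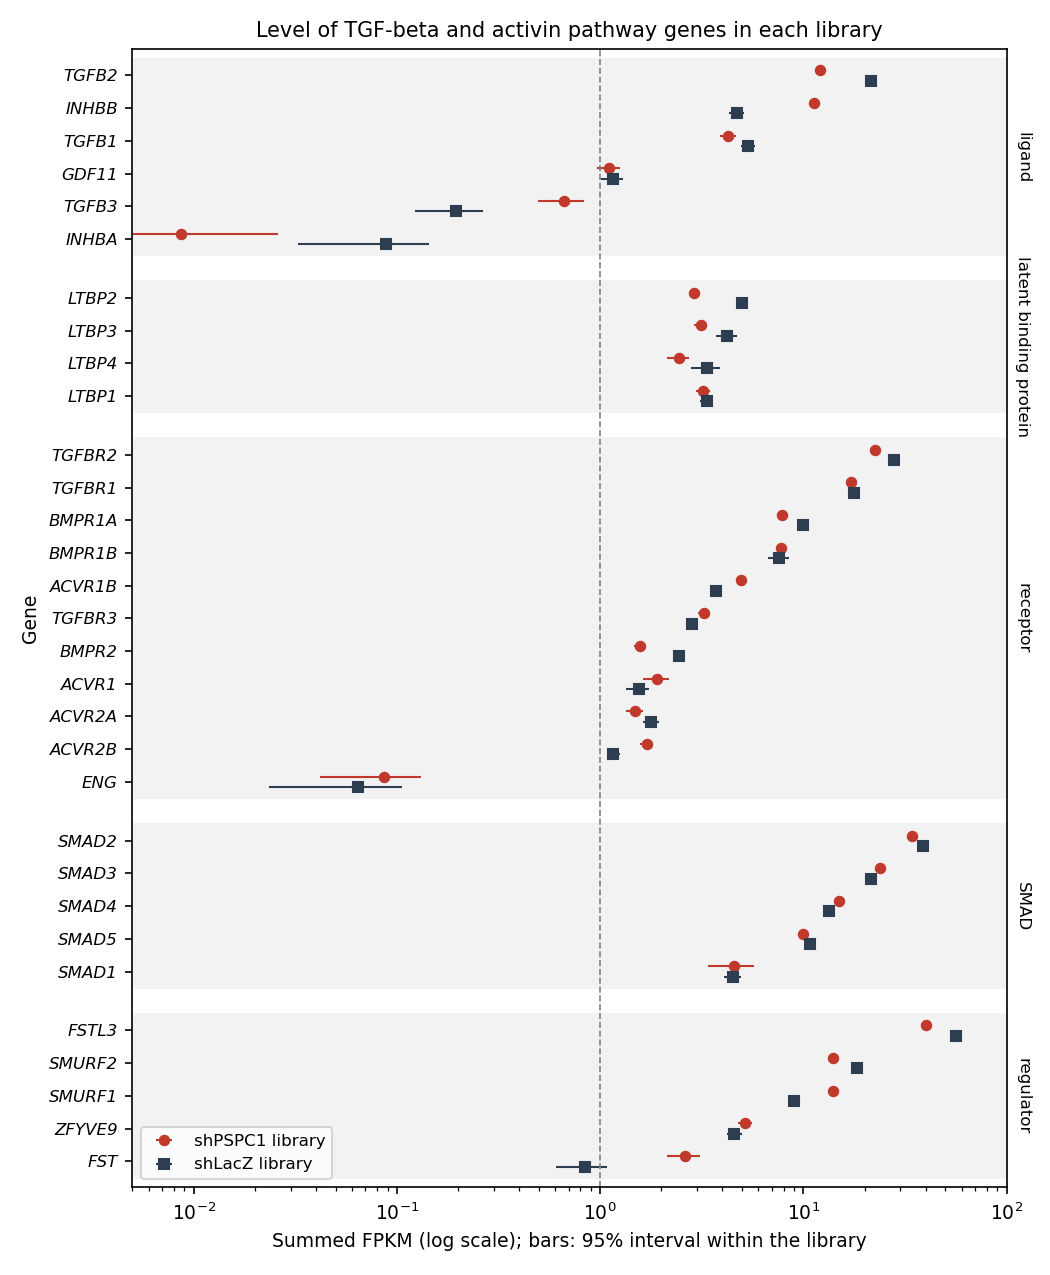
Summed FPKM of each of the 31 genes on a log axis, with circles for the shPSPC1 and squares for the shLacZ library and bars for the 95% interval within the library. Genes are grouped by role, and the dashed line marks 1 FPKM. Circle and square lie close together for most genes. Among genes that reach 1 FPKM they lie farthest apart for FST, INHBB, TGFB2 and LTBP2. INHBA and TGFB3, below 1 FPKM in both libraries, lie wider apart still, on few fragments.

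Differences were read by size. A gene passed when it reached 1 FPKM in the higher library, differed at least 2-fold or 1.5-fold with the pseudocount, and had intervals that did not overlap. Because a short assembled transcript present in only 1 file can raise a gene's summed FPKM, each gene was also measured by its estimated fragments and by exon density. Estimated fragments were computed from FPKM, transcript length and depth. Where 1 and the same transcript carries a gene in both files, the fragment ratio therefore repeats that of FPKM and adds nothing to it. This holds for INHBB, TGFB1 and FSTL3, and nearly so for TGFB2. Exon density weights the FPKM of each transcript by the part of the gene's annotated exons that it covers. By summed FPKM and fragments together, 1 of the 28 genes, INHBB, passed 2-fold higher and 0 passed 2-fold lower, where 1.08% and 1.31% of all 11465 genes did. INHBB did not pass by exon density, a measure by which, together with the other two, 0.68% of all genes were past 2-fold higher and 0.968% past 2-fold lower. By all 3 measures, 1 gene, FST, passed 1.5-fold higher and 2 genes, TGFB2 and LTBP2, passed 1.5-fold lower, where 1.42% and 2.76% of all genes did. By summed FPKM alone the 2-fold counts were also 1 higher and 0 lower, where 1.66% and 1.97% of all genes passed. By the same measure, 2 of the 28 genes passed 1.5-fold higher and 2 passed 1.5-fold lower, where 4.33% and 5.42% of all genes did. These are counts of 1 and 2 genes and describe those genes, not the pathway.

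**Figure D2:**
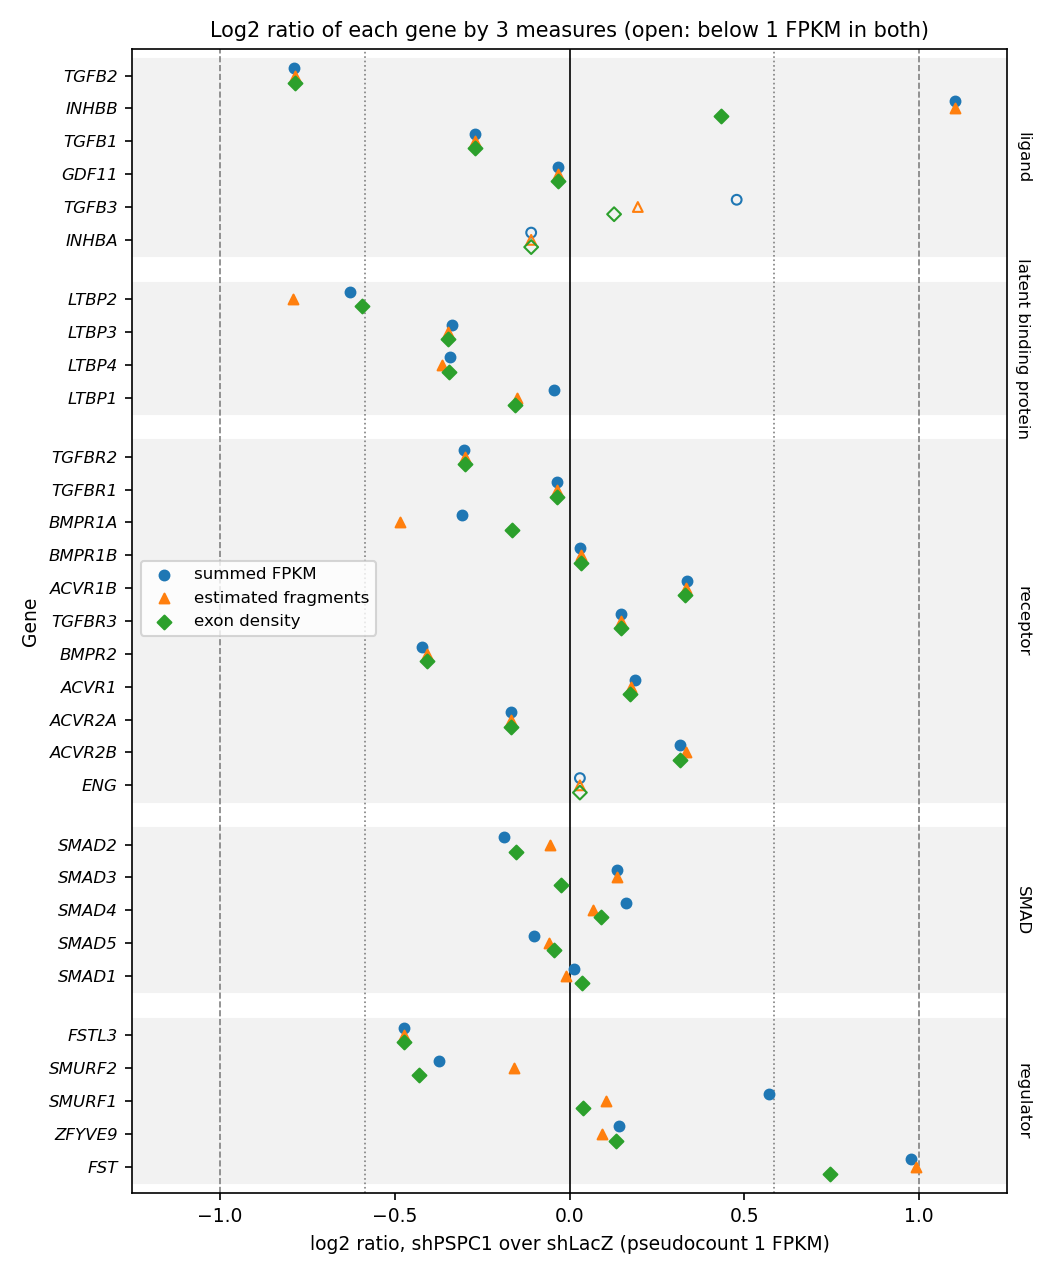
Log2 ratio of shPSPC1 over shLacZ for each of the 31 genes by summed FPKM (circles), estimated fragments (triangles) and exon density (diamonds), with open symbols for genes below 1 FPKM in both libraries. Dotted lines mark 1.5-fold and dashed lines 2-fold. The 3 measures nearly coincide for TGFB2 at -0.79 and spread from 0.43 to 1.10 for INHBB.

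Among the ligands, TGFB2 was the most abundant. TGFB2, one of the 3 TGF-beta isoforms, stood at 12.0 ± 0.38 FPKM in shPSPC1 cells, against 21.5 ± 0.52 FPKM in shLacZ cells. The intervals lay far apart, and the level was 1.79-fold lower in shPSPC1 cells. About 3926 fragments in the shPSPC1 library and 6900 in the shLacZ library stood behind these values. The log2 ratio was -0.79, with bounds from the intervals of -0.86 and -0.71, and it was -0.79 by fragments and by exon density too. These measures had to agree closely, because 1 annotated transcript carried the level in both libraries. The gene lies on chromosome 1 at 218518676 to 218617961 in the files' coordinates, and no label or header names their genome build. Its exons share 131 bases with those of the antisense gene TGFB2-AS1, and no source used here says whether the reads kept their strand.

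TGFB2 has an annotated cassette exon of 84 bases, or 28 codons, near the start of its coding sequence. The form with the exon was listed at 0 in both libraries, and the shorter form carried the whole level. The exon that was not detected is shown in capitals with 15 bases of the neighbouring exons in lower case. It is exon 2 of 8 at chr1:218363334-218363417 on the plus strand of GRCh38, and its sequence comes from the GENCODE transcript paired with the RefSeq accession.
TGFB2 cassette exon: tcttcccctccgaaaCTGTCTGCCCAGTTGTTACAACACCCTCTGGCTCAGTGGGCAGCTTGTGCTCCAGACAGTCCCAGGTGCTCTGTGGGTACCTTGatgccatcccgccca

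The region before the annotated start of TGFB2 is shown because this gene had the largest difference downward in the set by summed FPKM. It covers the 250 bases before the RefSeq start, chr1:218345086-218345335 on the plus strand of GRCh38.p14, with a GC content of 50.4% where the median of 35116 such windows was 58%. In all, 5 motifs were searched on both strands, and capitals mark the matches: CAGAC (the core of the SMAD-binding element), TGACG (found in cyclic AMP response elements), TGANTCA (AP-1), CACGTG (an E-box) and TATAAA (the TATA box).
TGFB2 promoter: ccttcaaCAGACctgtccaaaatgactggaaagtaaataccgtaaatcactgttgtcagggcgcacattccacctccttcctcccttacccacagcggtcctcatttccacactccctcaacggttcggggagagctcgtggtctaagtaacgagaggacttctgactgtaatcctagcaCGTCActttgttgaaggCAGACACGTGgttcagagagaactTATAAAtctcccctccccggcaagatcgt

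CAGAC began 243 and 53 bases before the start, and the nearer match overlaps CACGTG, which began 49 bases before it. TGACG, here read as CGTCA on the other strand, began 70 bases and TATAAA 29 bases before the start. Of all 35116 windows, 38% held CAGAC, 21.2% TGACG, 6.34% CACGTG and 10.7% TATAAA. Among the 31 promoters of the set, 8 held CAGAC, 4 TGACG, 5 CACGTG and 5 TATAAA. These are matches of letters and not sites of binding.

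TGFB1, which encodes the isoform found in most tissues, stood at 4.26 ± 0.38 FPKM in shPSPC1 and 5.34 ± 0.43 FPKM in shLacZ cells. Its log2 ratio of -0.27 did not pass 1.5-fold. TGFB3, the remaining TGF-beta isoform, was below 1 FPKM, at 0.664 ± 0.17 FPKM in shPSPC1 and 0.195 ± 0.072 FPKM in shLacZ cells, with about 63 and 33 fragments. The level of TGFB3 in the shPSPC1 library came from 2 assembled transcripts of 4 exons each, and its annotated transcript was listed at 0 there. GDF11, an activin-like ligand of the growth and differentiation factor family, was close to 1 FPKM in both, at 1.11 ± 0.14 in shPSPC1 and 1.15 ± 0.14 in shLacZ cells.

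Of the activin subunit genes, INHBB was well expressed and INHBA nearly absent. INHBA, the subunit of activin A, had about 1 fragment in the shPSPC1 and 10 fragments in the shLacZ library. INHBB, the subunit of activin B, stood at 11.3 ± 0.51 FPKM in shPSPC1 cells, against 4.72 ± 0.39 FPKM in shLacZ cells, on chromosome 2 at 121103719 to 121109383 in the files' coordinates. By this sum it was 2.39-fold higher, with a log2 ratio of 1.10 by summed FPKM and by fragments. The shLacZ file also holds an assembled transcript of 4.002 ± 0.41 FPKM and about 581 fragments on the same strand, which shares no intron with INHBB but has 98.7% of its bases in the second exon of INHBB. Exon by exon, the first exon of 494 bases had 11.3 FPKM in shPSPC1 and 4.72 FPKM in shLacZ cells. The second exon of 2709 bases had 11.3 FPKM in shPSPC1 and 8.72 FPKM in shLacZ cells, a ratio of 1.29. With the assembled transcript counted, the log2 ratio of INHBB was 0.34, and by exon density it was 0.43, both short of 1.5-fold. INHBB was thus higher in shPSPC1 cells by every measure, while the 2-fold size held only where the assembled transcript was left out.

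**Figure D3:**
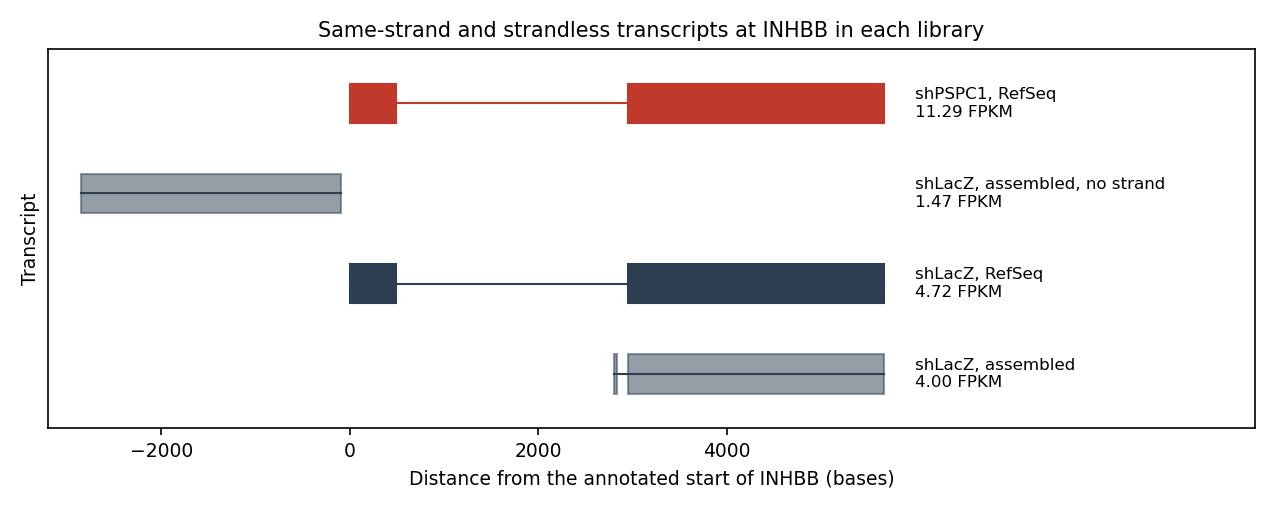
Transcripts above 0 FPKM at INHBB, drawn to scale by distance in bases from its annotated start, with the shPSPC1 library in the top row and the shLacZ library in the rows under it. Boxes are exons, and paler boxes are assembled transcripts. The shLacZ library splits the second exon between the annotated transcript at 4.72 FPKM and an assembled one at 4.002 FPKM, and the shPSPC1 library has the annotated transcript alone at 11.29 FPKM.

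The region before INHBB is shown because it was the single gene past 2-fold higher by the summed measures. It spans chr2:120345886-120346135 on the plus strand of GRCh38.p14. With a GC content of 89.6% it is far above the median window, and it held 0 of the 5 motifs, so no letters are in capitals.
INHBB promoter: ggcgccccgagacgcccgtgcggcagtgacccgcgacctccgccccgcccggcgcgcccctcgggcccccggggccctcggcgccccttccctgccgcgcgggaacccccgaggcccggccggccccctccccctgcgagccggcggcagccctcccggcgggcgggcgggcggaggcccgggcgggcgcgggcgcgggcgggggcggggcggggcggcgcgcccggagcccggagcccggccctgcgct

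The 4 latent binding proteins were all lower in shPSPC1 cells by summed FPKM, fragments and exon density, with a median log2 ratio of -0.34, although LTBP1 turned to 0.03 when the libraries were set to equal sums of FPKM without mitochondrial genes, LTBP3 to 0.19 when each gene's most abundant transcript was used, and LTBP4 to 0.57 when only annotated transcripts were counted. Of the 4, only LTBP2 passed 1.5-fold. LTBP2, which unlike its relatives does not bind latent TGF-beta and is known for its part in elastic microfibrils, stood at 2.88 ± 0.16 FPKM in shPSPC1 and 5.01 ± 0.22 FPKM in shLacZ cells. That is 1.74-fold lower, on chromosome 14 at 74964886 to 75079034 in the files' coordinates, with about 1382 fragments in the shPSPC1 and 2699 in the shLacZ library. Its log2 ratio was -0.63 by summed FPKM, -0.79 by fragments and -0.59 by exon density, the last only just past 1.5-fold. In the shLacZ library 1.405 ± 0.11 FPKM of LTBP2 came from an assembled transcript of 37 exons that is not in the shPSPC1 file. The annotated transcript of LTBP2 alone stood at 2.88 ± 0.16 FPKM in shPSPC1 and 3.60 ± 0.20 FPKM in shLacZ cells, a log2 ratio of -0.24 that did not pass. With the libraries set to equal sums of FPKM without mitochondrial genes, LTBP2 had a log2 ratio of -0.56 and did not pass either.

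LTBP3 stood at 3.13 ± 0.22 FPKM in shPSPC1 and 4.22 ± 0.48 FPKM in shLacZ cells, a log2 ratio of -0.34. LTBP4 stood at 2.43 ± 0.30 FPKM in shPSPC1 and 3.35 ± 0.54 FPKM in shLacZ cells, also a log2 ratio of -0.34. LTBP1, a major carrier of latent TGF-beta, was nearly level at 3.22 ± 0.26 FPKM in shPSPC1 and 3.35 ± 0.24 FPKM in shLacZ cells. An exon of 141 bases in LTBP3 was carried by 0% of the level that could be assigned in shPSPC1 cells and by 37.8% in shLacZ cells. That rests on 1.60 ± 0.34 FPKM of 1 transcript in the shLacZ library.

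The region before LTBP2 is given beside that of TGFB2, the other gene past 1.5-fold lower. It spans chr14:74612238-74612487 on the minus strand of GRCh38.p14, is written in the direction of transcription, has a GC content of 68.8% and held 0 of the 5 motifs.
LTBP2 promoter: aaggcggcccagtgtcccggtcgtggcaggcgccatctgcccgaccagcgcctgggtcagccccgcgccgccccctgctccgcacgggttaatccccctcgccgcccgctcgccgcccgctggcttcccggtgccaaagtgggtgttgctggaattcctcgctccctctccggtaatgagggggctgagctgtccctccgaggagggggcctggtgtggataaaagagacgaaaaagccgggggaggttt

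Among the receptors, 10 of 11 reached 1 FPKM, 5 with a positive and 5 with a negative log2 ratio, and 0 passed 1.5-fold in either direction. TGFBR2, the type II receptor for TGF-beta, was the most abundant at 22.5 ± 0.70 FPKM in shPSPC1 and 28.0 ± 0.84 FPKM in shLacZ cells. Its log2 ratio was -0.30, with intervals that did not overlap. TGFBR1, the type I receptor for TGF-beta, was level at 17.2 ± 0.44 FPKM in shPSPC1 and 17.7 ± 0.45 FPKM in shLacZ cells, with intervals that overlapped. The co-receptor TGFBR3, or betaglycan, stood at 3.26 ± 0.22 FPKM in shPSPC1 and 2.84 ± 0.20 FPKM in shLacZ cells. The endothelial co-receptor ENG stayed below 0.1 FPKM in both, with about 15 fragments in the shPSPC1 and 11 in the shLacZ library.

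TGFBR2 has an annotated exon of 75 bases, or 25 codons, in the part that encodes its extracellular region. The form with this exon was level, at 6.93 ± 0.42 FPKM in shPSPC1 and 6.97 ± 0.50 FPKM in shLacZ cells. The form without it stood at 15.6 ± 0.56 FPKM in shPSPC1 and 21.0 ± 0.67 FPKM in shLacZ cells. The difference in TGFBR2 therefore lay in the shorter form, and the exon was carried by 30.8% of the level in shPSPC1 and 24.9% in shLacZ cells. The exon is shown in capitals with 15 bases of its neighbours in lower case, and is exon 2 of 8 at chr3:30623199-30623273 on the plus strand of GRCh38.
TGFBR2 alternative exon: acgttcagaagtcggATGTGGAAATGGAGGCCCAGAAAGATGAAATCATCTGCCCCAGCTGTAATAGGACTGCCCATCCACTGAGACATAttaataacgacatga

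The activin and bone morphogenetic protein receptors all had lower levels than TGFBR1 and TGFBR2. ACVR1B, the type I receptor for activin, stood at 4.95 ± 0.28 FPKM in shPSPC1 and 3.72 ± 0.25 FPKM in shLacZ cells, a log2 ratio of 0.33 with intervals that did not overlap. ACVR2B, a type II receptor for activin, stood at 1.69 ± 0.12 FPKM in shPSPC1 and 1.16 ± 0.086 FPKM in shLacZ cells, a log2 ratio of 0.32. That direction turned to -0.30 when only annotated transcripts were counted. ACVR2A, the other type II activin receptor, stood at 1.48 ± 0.14 FPKM in shPSPC1 and 1.78 ± 0.16 FPKM in shLacZ cells, with intervals that all but met. ACVR1, a type I receptor, stood at 1.90 ± 0.27 FPKM in shPSPC1 and 1.55 ± 0.20 FPKM in shLacZ cells, with intervals that overlapped. With annotated transcripts alone ACVR1 turned to a log2 ratio of -0.29. BMPR2, the type II receptor for bone morphogenetic proteins, stood at 1.56 ± 0.096 FPKM in shPSPC1 and 2.43 ± 0.13 FPKM in shLacZ cells. Its log2 ratio of -0.42 was the lowest among the receptors by summed FPKM and did not pass 1.5-fold with the pseudocount. The type I receptor BMPR1A stood at 7.83 ± 0.40 FPKM in shPSPC1 and 9.92 ± 0.48 FPKM in shLacZ cells. Of the shLacZ value, 2.62 FPKM came from an assembled transcript not in the shPSPC1 file. The log2 ratio of BMPR1A was -0.31 by summed FPKM and 0.09 with annotated transcripts alone. BMPR1B, its close relative, was level at 7.77 ± 0.32 FPKM in shPSPC1 and 7.60 ± 0.91 FPKM in shLacZ cells.

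The 5 SMADs had log2 ratios of summed FPKM between -0.19 and 0.16, and 0 of 5 passed 1.5-fold. SMAD2, which carries TGF-beta and activin signals, stood at 34.1 ± 1.4 FPKM in shPSPC1 and 39.0 ± 1.5 FPKM in shLacZ cells, a log2 ratio of -0.19. Much of this sum came from short assembled transcripts that differ between the files, and the exon density of SMAD2 was 13.03 FPKM in shPSPC1 and 14.6 FPKM in shLacZ cells. SMAD3, its partner in the same branch, stood at 23.8 ± 0.52 FPKM in shPSPC1 and 21.6 ± 0.52 FPKM in shLacZ cells, with a log2 ratio of 0.14 by summed FPKM and -0.02 by exon density. SMAD4, the shared partner of both branches, stood at 15.02 ± 0.74 FPKM in shPSPC1 and 13.3 ± 0.69 FPKM in shLacZ cells. Of the SMADs for bone morphogenetic proteins, SMAD5 stood at 9.94 ± 0.39 FPKM in shPSPC1 and 10.7 ± 0.43 FPKM in shLacZ cells. SMAD1 stood at 4.56 ± 1.2 FPKM in shPSPC1 and 4.51 ± 0.42 FPKM in shLacZ cells, the widest interval of the class for its level.

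Transcript choice within the genes was compared where a gene reached 5 FPKM in both libraries. An intron chain whose share of its gene differed by 0.3 or more was found for SMAD2 and SMURF1, 2 of 12 such genes of the set, where 23.4% of 7103 genes had one. A share near that of all genes is no result about the set. In SMAD2 the annotated form that skips a 90-base exon was listed at 0 in both libraries. Transcripts with that exon held 53.5% of the summed FPKM of SMAD2 in shPSPC1 and 100% in shLacZ cells. The rest in shPSPC1 cells was an assembled transcript without the exon. That transcript, of 7 exons and 15.8 ± 1.3 FPKM, was in the shPSPC1 file alone. It is short, at 1197 bases, and held about 934 of the 8576 estimated SMAD2 fragments of that library. An assembled SMAD2 transcript of 9 exons and 26.7 ± 1.5 FPKM was in the shLacZ file alone. The form of SMAD5 with an exon of 75 bases held 60.2% of its level in shPSPC1 and 70.3% in shLacZ cells.

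Of the regulators, the activin inhibitors FST and FSTL3 differed in opposite directions. FST, or follistatin, stood at 2.63 ± 0.49 FPKM in shPSPC1 and 0.845 ± 0.24 FPKM in shLacZ cells, on chromosome 5 at 52776264 to 52782304 in the files' coordinates. That is 3.11-fold higher, on about 272 fragments in the shPSPC1 and 81 in the shLacZ library. Its log2 ratio was 0.98 by summed FPKM, 0.99 by fragments and 0.75 by exon density. In the shPSPC1 file the rows under the annotated FST accessions were listed at 0, while assembled rows with the same intron chains held 0.454 and 0.964 FPKM. Counting rows under annotated accessions alone therefore gave a log2 ratio of -0.37, and counting the chains in both files gave 0.91. FSTL3, a related activin-binding protein and the most abundant gene of the set, stood at 40.1 ± 1.1 FPKM in shPSPC1 and 56.0 ± 1.3 FPKM in shLacZ cells. Its log2 ratio was -0.47 by each of the 3 measures, with intervals far apart, and did not pass 1.5-fold. Summed FPKM and fragments had to coincide, as FSTL3 has 1 transcript in each file.

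The region before FST is shown as that of the gene past 1.5-fold higher by all 3 measures. It spans chr5:53480379-53480628 on the plus strand of GRCh38.p14, with a GC content of 60%. TGANTCA, the AP-1 motif, began 160 bases before the start as TGATTCA, in capitals. It was found in 6.57% of all windows and in 2 of the 31 promoters of the set.
FST promoter: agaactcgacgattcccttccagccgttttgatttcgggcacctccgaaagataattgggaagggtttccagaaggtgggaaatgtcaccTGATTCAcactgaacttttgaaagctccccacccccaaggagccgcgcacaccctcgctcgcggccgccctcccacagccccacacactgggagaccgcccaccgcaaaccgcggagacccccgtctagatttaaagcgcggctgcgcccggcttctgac

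SMURF1, a ubiquitin ligase, stood at 13.9 ± 0.68 FPKM in shPSPC1 and 9.04 ± 0.40 FPKM in shLacZ cells. Of the shPSPC1 value, 6.60 ± 0.58 FPKM belonged to an assembled transcript of 2240 bases that is not in the shLacZ file. Its log2 ratio was 0.57 by summed FPKM, 0.11 by fragments and 0.04 by exon density, so the difference was not seen in the amount of RNA over its exons. SMURF2, the related ligase, stood at 14.0 ± 0.55 FPKM in shPSPC1 and 18.4 ± 0.60 FPKM in shLacZ cells. Its log2 ratio was -0.37 by summed FPKM, -0.16 by fragments and -0.43 by exon density. ZFYVE9, the SMAD anchor that presents SMAD2 and SMAD3 to the receptors, stood at 5.16 ± 0.40 FPKM in shPSPC1 and 4.58 ± 0.38 FPKM in shLacZ cells, with intervals that overlapped.

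**Figure D4:**
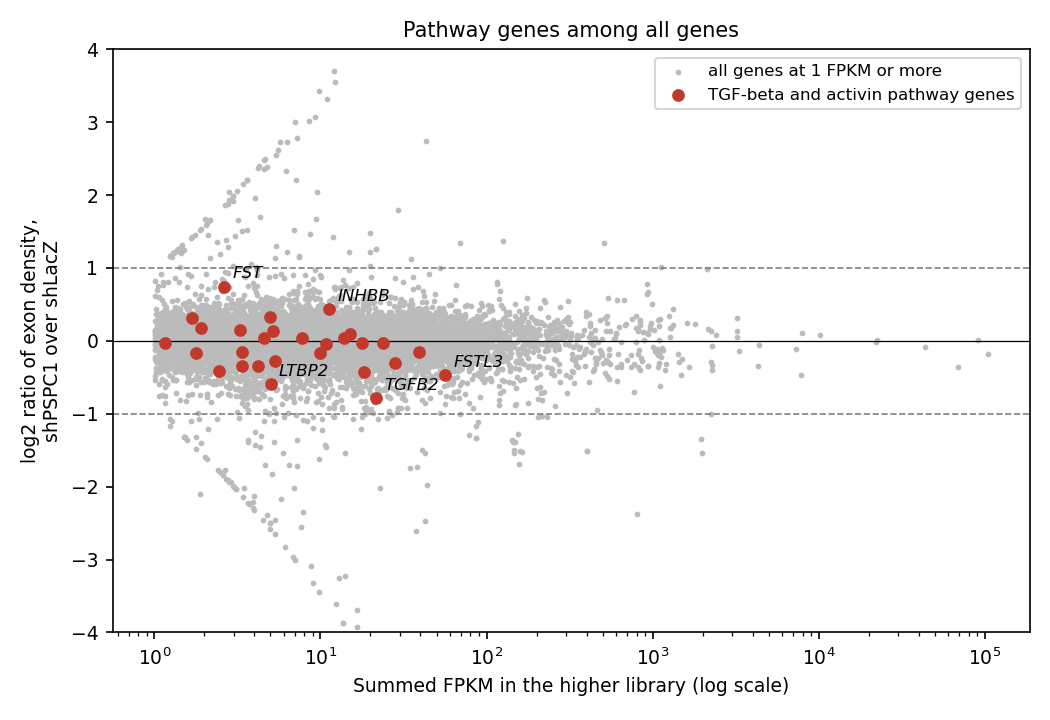
Log2 ratio of exon density, shPSPC1 over shLacZ, against the summed FPKM of the higher library on a log axis, for genes at 1 FPKM or more in grey and for the 28 genes of the set in red. Dashed lines mark 2-fold, and grey points beyond the ends of the vertical axis are not drawn. The 28 genes lie inside the dashed lines, from -0.79 for TGFB2 to 0.75 for FST.

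Other components of the pathway were read from a list of 52 further genes, of which 51 had rows and 32 reached 1 FPKM. Their median log2 ratio was -0.08 by summed FPKM and -0.13 by fragments. By both measures 1 of the 32 passed 2-fold lower and 0 higher, where 1.31% and 1.08% of all genes did. That gene was GREM1, or gremlin, a secreted inhibitor of bone morphogenetic proteins, which fell to 2.20 ± 0.20 FPKM in shPSPC1 cells, against 7.20 ± 0.36 FPKM in shLacZ cells. Past 1.5-fold lower by both measures were also PMEPA1 and FSTL1, where 3.43% of all genes were, and 0 of the list passed 1.5-fold higher, where 2.24% were. PMEPA1, a membrane protein that sequesters SMAD2 and SMAD3, stood at 18.8 ± 0.65 FPKM in shPSPC1 and 31.6 ± 0.86 FPKM in shLacZ cells. FSTL1, a secreted glycoprotein named for its follistatin domain, stood at 31.2 ± 0.77 FPKM in shPSPC1 and 57.0 ± 1.4 FPKM in shLacZ cells. Its log2 ratio was -0.85 by summed FPKM and -0.76 by exon density, but 0.04 over the chains in both files alone. The most abundant, CAV1 (caveolin, which takes part in receptor uptake), was level at 90.2 ± 2.0 FPKM in shPSPC1 and 92.8 ± 2.1 FPKM in shLacZ cells. STRAP, a receptor-associated protein, stood at 49.9 ± 1.4 FPKM in shPSPC1 and 63.0 ± 1.6 FPKM in shLacZ cells.

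Known targets of TGF-beta are genes that the pathway regulates, such as TGFBI, which it induces. The list used here also holds ID1, ID2 and ID3, and no expected direction was set for its genes. Of 25 listed, 22 reached 1 FPKM, with 19 below and 3 above 0 and a median log2 ratio of -0.37 by summed FPKM, -0.42 by fragments and -0.30 by exon density. By summed FPKM and fragments, 9 passed 1.5-fold lower and 0 higher, where 3.43% and 2.24% of all genes did. By summed FPKM alone 9 passed 1.5-fold lower and 2, SKIL and ID2, passed higher, where 5.42% and 4.33% of all genes did. By fragments the log2 ratios of these 2 were 0.06 for SKIL and 0.55 for ID2, short of 1.5-fold. By all 3 measures 7 passed 1.5-fold lower, where 2.76% of all genes did. TNC (tenascin C of the matrix) fell to 3.24 ± 0.24 FPKM in shPSPC1 cells, against 10.7 ± 0.44 FPKM in shLacZ cells. The log2 ratio of TNC was -1.46, and -0.39 over the chains in both files alone. HMGA2 (a chromatin protein) fell to 2.38 ± 0.28 FPKM in shPSPC1 cells, against 5.89 ± 0.32 FPKM in shLacZ cells, with a log2 ratio of -1.03 by summed FPKM and -0.87 by exon density. TGFBI, a matrix protein induced by TGF-beta, stood at 241 ± 2.5 FPKM in shPSPC1 and 464 ± 3.5 FPKM in shLacZ cells.

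Also past 1.5-fold lower were COL4A1, CCN2 and JUNB, beside PMEPA1 and LTBP2, which are counted above. COL4A1, a chain of basement membrane collagen, stood at 13.2 ± 0.38 FPKM in shPSPC1 and 22.3 ± 0.50 FPKM in shLacZ cells. CCN2, the connective tissue growth factor, stood at 0.568 ± 0.16 FPKM in shPSPC1 and 1.58 ± 0.23 FPKM in shLacZ cells, and did not pass by exon density. JUNB, an AP-1 subunit, stood at 11.5 ± 0.85 FPKM in shPSPC1 and 22.5 ± 0.98 FPKM in shLacZ cells, but its log2 ratio by exon density was -0.02. ID1, an inhibitor of differentiation that responds to bone morphogenetic proteins, had the other direction, at 209 ± 4.2 FPKM in shPSPC1 and 149 ± 3.7 FPKM in shLacZ cells. TPM1, a tropomyosin, stood at 184 ± 2.8 FPKM in shPSPC1 and 245 ± 3.3 FPKM in shLacZ cells. The target list holds TGFB1 and LTBP2 of the 31 genes, and other cues regulate its genes too, so its values are no measure of signalling.

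**Figure D5:**
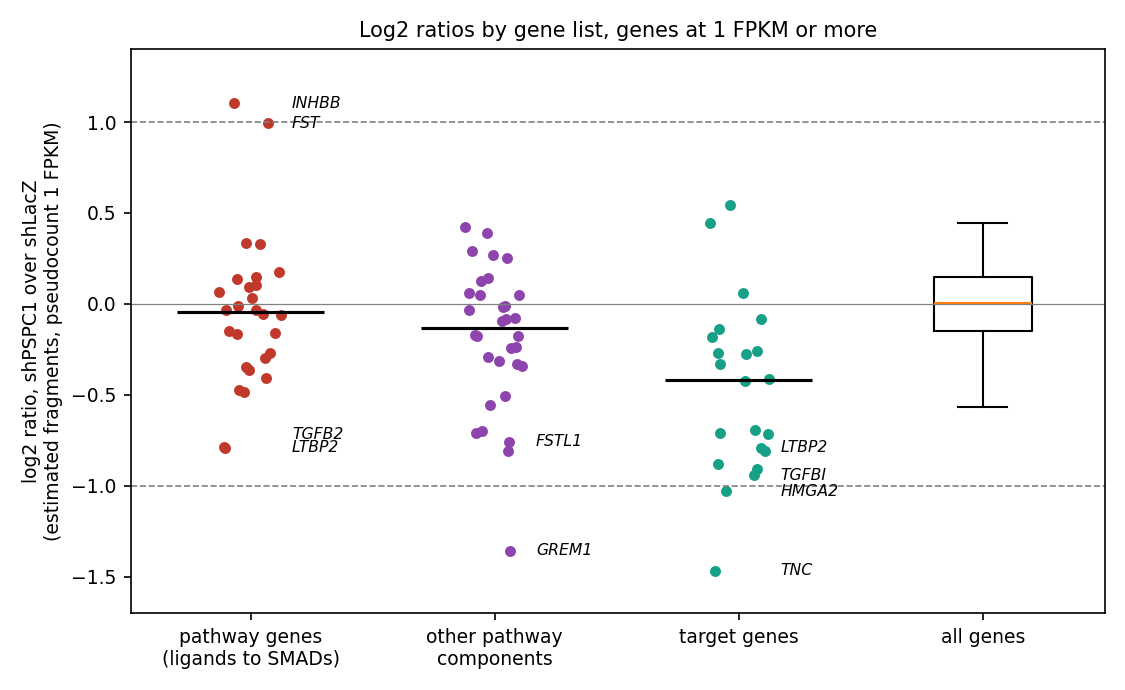
Log2 ratios of estimated fragments, shPSPC1 over shLacZ, for genes at 1 FPKM or more in the 31-gene set, the further components and the target genes, with a black line at each median. The box for all genes spans the middle quartiles with whiskers at the 5th and 95th percentiles, and dashed lines mark 2-fold. The medians are -0.05, -0.13 and -0.42, and labels name some of the genes at 0.75 or more on either side.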

How the data were processed

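RNA from 2 libraries was sequenced, and each has 1 deposited file of transcripts. CASAVA 1.8.2, Cufflinks 2.1.1 and TopHat2 2.0.7 are listed in the submitters' processing notes, without role or order. Each transcript row carries an FPKM, a coverage and the bounds of a 95% interval, which the authors computed, as the attribute names of the deposited rows show. The deposited score column holds whole numbers relative within a locus and was not used. The 31 members, the gene lists, the rules of size and the motifs were chosen with earlier results of these data known.

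A gene's value was the summed FPKM of its RefSeq transcripts, matched by accession or gene identifier to a RefSeq table on GRCh38.p14 used for names only, and of stranded assembled transcripts sharing an intron with it. Half-widths were combined as the root of their sum of squares. Depth and mean fragment length were recovered from intervals of transcripts alone at their locus. The implied number of fragments was whole within 0.02 for 94.4% of 35289 transcripts in the shPSPC1 and 94.2% of 29034 in the shLacZ file. The estimated fragments of every gene were then computed from FPKM, transcript length and depth, so they are not independent of FPKM. Mean fragment lengths came to 165 bases in the shPSPC1 and 161 bases in the shLacZ library. At these depths 1 FPKM over 2000 bases stands for 105 fragments in the shPSPC1 and 103 in the shLacZ library. The rule of size and the recovery of depth were tested on simulated data. Exon density, and the counting of overlapping assembled transcripts, were added after the INHBB values had been seen.

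Named genes were all 31 members, PSPC1, and of the other lists every gene past 2-fold by summed FPKM and fragments, up to 8 past 1.5-fold by both, and the 3 most abundant. The values of 1 target gene that this rule names are not reported here. Other settings were annotated transcripts alone, chains in both files, the most abundant transcript, a pseudocount of 0.1, other filters and other scalings. Promoters come from RefSeq on GRCh38.p14, where 31 of 31 members matched, and exon sequences from GENCODE transcripts. No coordinate was converted between builds. Python 3.11.15, numpy 2.4.6, pandas 2.3.3 and matplotlib 3.10.9 were used.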

Additional observations from a re-analysis of the deposited data

Results flagged for a closer look

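Assembled transcripts without a strand inside introns were not used in any gene's value, and at 3 of the 31 genes they held at least 100 fragments in the shPSPC1 library and at least 2 times as many as in the shLacZ library. BMPR2 had 202 such fragments in 11 pieces in the shPSPC1 and 0 fragments in the shLacZ library. ACVR2B had 181 fragments in 9 pieces in the shPSPC1 and 46 fragments in 3 pieces in the shLacZ library. SMAD5 had 668 fragments in 1 piece in the shPSPC1 and 89 fragments in 1 piece in the shLacZ library. Over the 31 genes, 9 had more such fragments in the shPSPC1 and 10 had more in the shLacZ library. Among those 10, SMAD3 had 1786 fragments in the shPSPC1 and 3995 in the shLacZ library, SMURF2 had 0 in the shPSPC1 and 414 in the shLacZ library, SMURF1 had 14 in the shPSPC1 and 337 in the shLacZ library, and TGFB1 had 0 in the shPSPC1 and 164 in the shLacZ library. The share of all genes past the same rule was not computed, so the 3 genes cannot be set against it. Across the whole genome the shPSPC1 library had 36255 assembled transcripts without a strand and the shLacZ library 29208. Whether these pieces belong to the genes was not tested.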

How the results depend on the processing

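No paired analysis was possible because each group has 1 library, and for the same reason no library could be left out. The median log2 ratio of the 28 genes lay between -0.18 with annotated transcripts alone and 0.03 with equal sums of FPKM without mitochondrial genes, where the median of all genes was 0.09. That scaling multiplied the shPSPC1 values by 1.07, and setting the median of all genes to 0 multiplied them by 0.9948. TGFB2 stayed between -0.83 and -0.70 under every setting run. The settings that choose among transcripts could not move it, as 1 annotated transcript carried its level in both libraries. Genes past 2-fold higher numbered 2 with annotated transcripts alone, with a pseudocount of 0.1 and with equal sums, and 0 by exon density or with overlapping assembled transcripts added. Genes past 2-fold lower numbered 1 with annotated transcripts alone and with chains in both files. Genes past 1.5-fold higher numbered 1 with the most abundant transcript, at 5 FPKM or more, by exon density and with overlapping transcripts added, and genes past 1.5-fold lower numbered 1 with equal sums, where LTBP2 no longer passed. The shares of all genes past these sizes were not computed for these settings, so the shifts in the counts cannot be set against all genes. PSPC1 had a log2 ratio of -0.58 by its most abundant transcript and -2.46 with rows under annotated accessions alone. Over chains in both files it was -0.79, the same as by summed FPKM. FST turned to -0.37 with rows under annotated accessions alone, which are listed at 0 in the shPSPC1 file although assembled rows hold the same intron chains, and was 0.91 over chains in both files. With annotated transcripts alone, log2 ratios ran from -1.35 for SMAD1 to 2.02 for SMAD5. The SMAD5 value arose as in FST, since assembled rows in the shLacZ file hold its annotated intron chains. Over chains in both files SMAD5 had a log2 ratio of -0.10. Beyond these, the causes of the shifts were not tested. Exon density and the added overlapping transcripts were chosen after seeing the data. Depth limits INHBA, ENG and TGFB3, which stayed below 1 FPKM on 63 fragments or fewer.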

Other observations

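Among the 31 genes, exons overlap those of a gene on the opposite strand in TGFB2 (TGFB2-AS1, 131 bases), ACVR2A (ORC4, 428 bases) and GDF11 (SARNP, 378 bases), among others. Without the strand of the reads, fragments of the 2 genes cannot be told apart over these bases.

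Upstream of INHBB the shLacZ file holds an assembled transcript without a strand, of 2765 bases, 1.47 ± 0.20 FPKM and about 215 fragments, which ends 88 bases before the annotated start of INHBB and has no counterpart above 0 in the shPSPC1 file. It was not counted for INHBB.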
